A study of Mus musculus with 6 samples.

Results

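The CDK inhibitors are small proteins that slow the cell cycle by blocking the cyclin-dependent kinases (CDKs), and 6 of their genes were listed by name. *Cdkn1a*, *Cdkn1b*, *Cdkn2b*, *Cdkn2c* and *Cdkn2d* were found by symbol among the 11386 genes measured, and *Cdkn2a* was not analysed here. The RNA came from dental mesenchymal cells (mDMCs) of ICR mice, taken from molar tooth germs at embryonic day 14.5. P0 cells were freshly isolated, and P1 and P2 cells were the first and second passage of a culture that was passaged near confluence on plastic, in standard medium with serum by the study's methods. Each passage had 2 libraries, 6 in all, and no genetic change or added factor is named for any of them. The P0, P1 and P2 cells were all harvested with trypsin. Fresh P0 cells also came straight from the dispase treatment and pipetting that freed them from the tooth germ. Effects of that step cannot be told apart from those of culture. No source used here says whether the 2 libraries of a passage came from separate cultures, so p-values measure only the spread between libraries, which may be technical.

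The family has a pair of branches. Proteins of the Cip/Kip branch, encoded by *Cdkn1a* (p21), *Cdkn1b* (p27) and the imprinted gene *Cdkn1c* (p57), bind complexes of cyclins with CDKs, CDK2 among them. Proteins of the INK4 branch, encoded by *Cdkn2a*, *Cdkn2b* (p15), *Cdkn2c* (p18) and *Cdkn2d* (p19), bind CDK4 and CDK6 and keep them from D-type cyclins. With either kinase blocked, the retinoblastoma proteins stay bound to E2F transcription factors and entry into S phase is held back. *Cdkn1a* is a textbook target of p53, *Cdkn2b* of TGF-beta signaling, and both are widely used as markers of arrest or senescence in cultured cells.

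The genes lie on several chromosomes (mm10, as the tables give them). *Cdkn1a* (ENSMUSG00000023067) spans chromosome 17 from 29090979 to 29099527 on the plus strand, and *Cdkn1b* (ENSMUSG00000003031) chromosome 6 from 134920401 to 134925513, also on the plus strand. On the minus strand are *Cdkn2b* (ENSMUSG00000073802) on chromosome 4 from 89306289 to 89311032, *Cdkn2c* (ENSMUSG00000028551) on chromosome 4 from 109660876 to 109667189 and *Cdkn2d* (ENSMUSG00000096472) on chromosome 9 from 21288463 to 21291209. GENCODE M21 gives the listed transcript 3 exons for *Cdkn1a*, *Cdkn2c* and *Cdkn2d* and 2 exons for *Cdkn1b* and *Cdkn2b*. In that annotation *Cdkn1a* shares 1046 bases with AC167363.2, an unclassified transcript on the opposite strand, and the library kit is not stated to keep strand, so reads of the pair cannot be told apart.

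Promoters are shown for the *Cdkn1a* and *Cdkn2b* genes because they carried the changes between fresh and cultured cells. Each line holds the 120 bases before a transcription start in the RefSeq table (GRCm38.p6), with matches of the p53 motif or of GGGCGG, a GC box, in capitals. *Cdkn1a* has 2 starts 2790 bases apart, the upstream one being the start of the transcript in the tables. Positions are on the plus strand for *Cdkn1a* (chr17:29090859-29090978 and chr17:29093649-29093768) and on the minus strand for *Cdkn2b* (chr4:89311033-89311152).
Cdkn1a upstream start: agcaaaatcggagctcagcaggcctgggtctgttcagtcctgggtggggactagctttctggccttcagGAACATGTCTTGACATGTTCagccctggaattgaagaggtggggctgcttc
Cdkn1a downstream start: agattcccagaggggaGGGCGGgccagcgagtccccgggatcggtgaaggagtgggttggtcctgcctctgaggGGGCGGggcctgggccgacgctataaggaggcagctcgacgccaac
Cdkn2b: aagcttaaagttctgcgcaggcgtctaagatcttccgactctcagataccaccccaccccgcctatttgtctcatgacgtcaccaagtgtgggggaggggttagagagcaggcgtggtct

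The p53 motif was searched with at most 1 mismatch outside its fixed C and G bases, and GGGCGG on both strands with none, in windows of 300 bases that end 50 bases past each start. The upstream *Cdkn1a* window held the p53 motif, beginning 51 bases before the start, as did 0.067% of 32851 windows. GGGCGG was in 35.7% of windows, among them the downstream *Cdkn1a* window with 2 matches and the *Cdkn2b* window with 1, which lies past the start and outside the bases shown. A match describes these letters only. The 22 windows with the p53 motif belonged to 22 genes, of which 5 were measured, and all 5 are named here, *Calhm2*, *Gtse1* and *Mthfd1* after their values were seen. *Cdkn1a*, the cyclin G1 gene *Ccng1* (log2 fold change 4.64 in P2), *Calhm2* (2.19) and *Gtse1* (1.23) were called higher in P1 and in P2. *Mthfd1* was not called (-0.21 in P2, adjusted p = 0.442 with limma). Over all genes, 12.2% were called higher in P1 and 14.0% in P2. *Cdkn1a* and *Ccng1* were known p53 targets, and the *Cdkn1a* promoter was shown because the gene changed. Nothing is therefore read from this count, and the part of p53 was not tested.

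*Cdkn1a* and *Cdkn2b* were close to absent from fresh mDMCs and far higher in cultured ones. The other 3 measured members differed by less than 2-fold. Values are given in scaled units, parts per 1000000 of the passage's summed normalized values, and 1 such unit equals 18.72 on the authors' scale. All measured genes had at least 101 on that scale in 2 libraries, and *Cdkn1a* (24) and *Cdkn2b* (4) were below this in P0. Genes that low in P0 were measured only if higher in culture. A rise was thus the only direction possible for *Cdkn1a* and *Cdkn2b*, and their calls and ranks carry this limit. Fold changes are on the log2 scale after adding 1 scaled unit, so those of low genes are understated. Called genes changed at least 2-fold with an adjusted p (Benjamini-Hochberg, limma, all genes) under 0.05. In P1 against P0, 2 of 5 members were called higher and 0 lower, beside 12.2% of all genes higher and 12.0% lower. At an unadjusted p under 0.05 there were 2 higher and 1 lower. In P2 against P0 the counts were again 2 and 0, beside 14.0% and 14.4% of all genes, with 2 higher and 2 lower at an unadjusted p under 0.05. The median log2 fold change of the 5 members was 0.21 in P1 and -0.38 in P2, beside 0.02 and 0.01 over all genes. The 2 comparisons share the P0 libraries. In bulk RNA, fewer cells expressing a gene and less of its RNA per cell cannot be told apart.

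**Figure D1:**
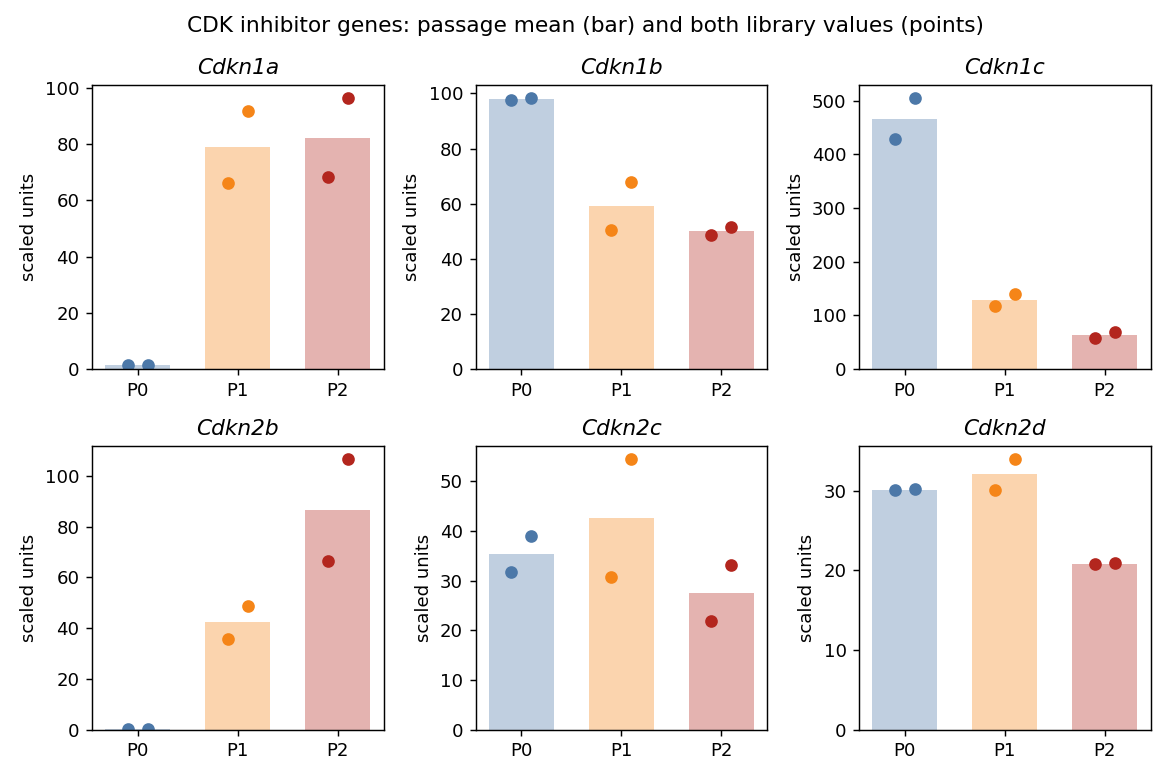
Scaled units of 6 CDK inhibitor genes in P0, P1 and P2, with a bar for the mean of the 2 libraries and a point for each library; vertical axes start at 0 and differ between panels. *Cdkn1a* and *Cdkn2b* are near 0 in P0 and at 35.9 or more in every cultured library, and *Cdkn1b* and *Cdkn1c* are highest in P0.

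*Cdkn1a*, whose protein p21 inhibits cyclin-CDK2 complexes, had 1.28 scaled units in both P0 libraries. It had 66.1 and 91.7 in the P1 libraries and 68.4 and 96.3 in the P2 libraries. Every cultured library was above both P0 libraries, and the P1 and P2 values overlapped. The mean was 61.6-fold higher in P1 than in P0 and 64.2-fold higher in P2, and the lowest P1 library was 51.6-fold above P0. The log2 fold change was 5.11 in P1 (standard error 0.22, adjusted p = 3.84e-05 with limma) and 5.17 in P2 (standard error 0.22, adjusted p = 2.66e-05). Ranked by log2 fold change among the 11386 genes, it was 25th from the top in P1 and 36th in P2. The P0 duplicates had the same value, 24 on the deposited scale, so the error rests on the P1 and P2 libraries and on the spread of other genes.

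*Cdkn2b*, whose protein p15 inhibits CDK4 and CDK6, had 0.21 scaled units in both P0 libraries, 4 on the deposited scale. The P1 libraries had 35.9 and 48.5, and the P2 libraries 66.2 and 106 (mean 86.4 ± 28.5, SD, n = 2). The 3 passages did not overlap and stood in the order P0, P1, P2. Its log2 fold change against P0 was 5.14 in P1 (standard error 0.25, adjusted p = 5.84e-05 with limma), the 22nd largest rise, and 6.13 in P2 (standard error 0.25, adjusted p = 2.55e-05), the 17th. The ratio of means was 198 in P1 and 404 in P2. Because the P0 value is so low, the size of this change is not exact: with pseudocounts from 5 down to 0.1 scaled units the log2 fold change ran from 3.17 to 7.06 in P1. *Cdkn2b* and *Cdkn2a* encode related proteins, and how reads matching both were divided between them was not tested.

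*Cdkn1b*, the p27 gene, was lower in culture but did not reach the 2-fold threshold. Its P0 libraries had 97.7 and 98.2 scaled units, its P1 libraries 50.4 and 67.8 and its P2 libraries 48.6 and 51.5. No cultured library reached the P0 values, and P1 and P2 overlapped. The log2 fold change was -0.73 in P1 (standard error 0.15, adjusted p = 0.00707 with limma) and -0.96 in P2 (standard error 0.15, adjusted p = 0.00209).

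*Cdkn2d*, an INK4 gene, differed little in P1 and was lower in P2. The libraries had 30.1 and 30.2 scaled units in P0, 30.1 and 34.0 in P1, and 20.8 and 20.9 in P2. P0 and P1 overlapped, and both P2 libraries were below all others. The log2 fold change was 0.08 in P1 (adjusted p = 0.53 with limma, 95% interval -0.18 to 0.34) and -0.51 in P2 (standard error 0.11, adjusted p = 0.00681), under the 2-fold threshold.

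*Cdkn2c*, the remaining INK4 gene, had libraries that overlapped in all 3 passages. They were at 31.8 and 38.9 scaled units in P0, 30.8 and 54.5 in P1, and 21.8 and 33.1 in P2. The log2 fold change was 0.21 in P1 (adjusted p = 0.577 with limma) and -0.38 in P2 (adjusted p = 0.325). Its 95% intervals, -0.54 to 0.97 in P1 and -1.13 to 0.38 in P2, reach to changes of about 2-fold. Its P1 duplicates differed by 0.81 on the log2 scale, against a median of 0.18 over all genes.

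**Figure D2:**
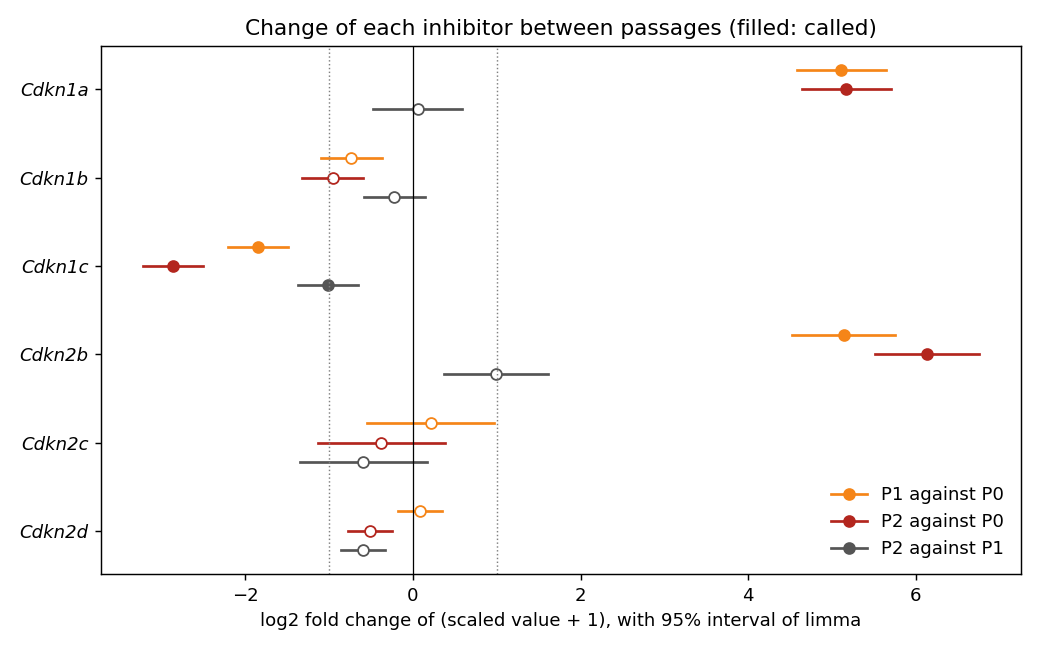
Log2 fold change of each inhibitor gene in the 3 comparisons, on the log2(scaled value + 1) scale, with limma's 95% interval as a line and dotted lines at 2-fold; filled points were called. *Cdkn1a* and *Cdkn2b* stand above 4.5 against P0, *Cdkn1c* is below -1.8, and the other genes lie within 1 of 0.

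Between the passages in culture, *Cdkn2b* had the largest difference among the members, but no member was called. In P2 against P1, limma called 0 of 5 members higher and 0 lower, beside 0.0878% and 0.211% of all genes, and 1 member was higher and 1 lower at an unadjusted p under 0.05. The higher one was *Cdkn2b* (log2 fold change 0.99, standard error 0.25, adjusted p = 0.153), whose means had a ratio of 2.05 and whose libraries did not overlap. The lower one was *Cdkn2d*, at -0.59 (standard error 0.11, adjusted p = 0.0686), likewise without overlap. *Cdkn2c* had -0.59 (adjusted p = 0.474), *Cdkn1b* -0.22 (adjusted p = 0.585) and *Cdkn1a* 0.06 (adjusted p = 0.941, 95% interval -0.47 to 0.59).

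*Cdkn1c*, the Cip/Kip gene that was not among the listed names, went the other way from *Cdkn1a*. It had 428 and 504 scaled units in P0, 117 and 140 in P1, and 57.5 and 69.3 in P2, with no overlap between passages. It fell in P1 (log2 fold change -1.85, adjusted p = 2.44e-04 with limma) and in P2 (-2.86, adjusted p = 4.65e-05). It also fell from P1 to P2 (-1.01, standard error 0.15, adjusted p = 0.0473 with limma). That call was lost in 7 of 16 alternatives, among them each of the 4 library values of P1 or P2 left out in turn. The log2 fold change ran from -1.15 to -0.88 over the alternatives. *Cdkn1c* shares 892 bases with the antisense transcript Gm44732, whose reads cannot be told apart from its own.

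Levels of different genes were compared per kb of exon, using merged exons of protein-coding transcripts in GENCODE M21. In P0 *Cdkn1b* (21.5 scaled units per kb) and *Cdkn2d* (19.2) led the 5 members, then *Cdkn2c* (13.2), with *Cdkn1a* (0.47) and *Cdkn2b* (0.15) far below. In P1 *Cdkn2b* (30.4) and *Cdkn1a* (29.0) were above *Cdkn2d* (20.4), *Cdkn2c* (15.9) and *Cdkn1b* (13.0). In P2 *Cdkn2b* (62.2) was first and *Cdkn1a* (30.3) second, with the other 3 between 10.2 and 13.3. Library values per kb of *Cdkn1a* and *Cdkn2b* overlapped in P1, as did those of *Cdkn2d* with *Cdkn2c* and of *Cdkn2c* with *Cdkn1b*, and in P2 only *Cdkn1b* and *Cdkn2c* overlapped among neighbours. The order also depends on the length used. With the 922 bases of its listed transcript in place of 2718, *Cdkn1a* had 85.6 per kb in P1 and 89.3 in P2 and ranked first in both, and *Cdkn2d* (23.9) passed *Cdkn1b* in P0.

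**Figure D3:**
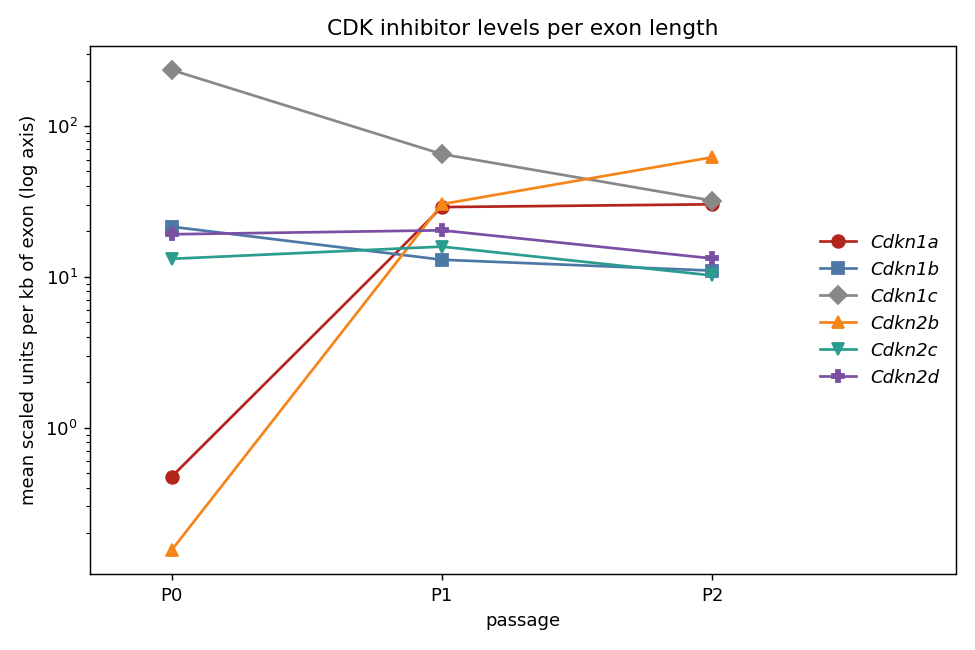
Passage means in scaled units per kb of exon for 6 inhibitor genes, on a log axis, with a line for each gene across P0, P1 and P2. *Cdkn1a* and *Cdkn2b* cross from the bottom in P0 (0.47 and 0.15) to 29.0 or more in P1, and *Cdkn1c* falls from 236 to 32.1.

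Genes known as p53 targets were mostly higher in culture beside *Cdkn1a*. All 20 listed were measured, *Cdkn1a* not being one of them. In P1, 15 rose, 1 fell and 4 were not called, beside 12.2% of all genes higher and 12.0% lower. In P2, 16 rose, 1 fell and 3 were not called, beside 14.0% and 14.4% of all genes. The median log2 fold changes were 2.0 and 1.96, beside 0.02 and 0.01 over all genes. The largest rises were those of *Ccng1* (47 scaled units in P0 and 1419 in P1, log2 fold change 4.90), the cell junction gene *Perp* (4.25 in P1 and 4.54 in P2), the TNF receptor family gene *Eda2r* (4.23 and 4.25) and *Pmaip1*, which encodes the apoptosis protein Noxa (3.80 and 4.15). Every measured gene reached 101 on the deposited scale in 2 libraries. In P0, *Perp* (mean 3.26 scaled units), *Pmaip1* (1.175) and *Fas* (2.43, outside the naming rule below) were under this. They were measured only through culture, so a rise was the only direction possible, and the counts of rises carry this limit. *Btg2*, an antiproliferative gene, fell (-1.61 and -1.27). *Trp53*, the p53 gene, stood at 39.1 scaled units in P0, 41.8 in P1 and 36.3 in P2 and was not called (adjusted p = 0.68 in P1 with limma). In P2 against P1 none of the 20 was called by limma, and 1 was higher at an unadjusted p under 0.05.

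Genes of proteins that act on the inhibitors were more often lower than higher. Of 27 listed, 26 were measured, and in P1 and in P2 1 rose and 7 fell (medians -0.50 and -0.52). The shares over all genes were 12.2% higher and 12.0% lower in P1, and 14.0% and 14.4% in P2. *Mdm2*, the p53 ubiquitin ligase and itself a p53 target, rose (1.70 in P1 and 1.57 in P2). *Skp2*, the F-box protein that marks p27 for breakdown, fell (from 91.3 scaled units in P0 to 31.2 in P1 and 20.3 in P2, log2 fold changes -1.53 and -2.12), as did *Id1*, an inhibitor of transcription factors (-1.75 and -2.10), and *Ezh2*, the Polycomb methyltransferase (-1.15 and -1.80). *Ezh2* and the Polycomb gene *Bmi1* encode repressors of the INK4 loci. *Bmi1*, which is outside the naming rule below, was not called (-0.53 in P1, adjusted p = 0.0105 with limma, under 2-fold). Of the other Polycomb genes measured, *Rnf2* was called lower in P2 (-1.19), and *Suz12* (-0.41), *Eed* (0.27) and *Ring1* (0.03) were not called. A link between these genes and the INK4 genes was not tested.

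The kinases, cyclins and pocket proteins that the inhibitors act through had few members called, and their counts stand beside 12.2% of all genes higher and 12.0% lower in P1 and 14.0% and 14.4% in P2, so nothing particular to them is read from the counts. Of 8 G1 cyclins and CDKs, 1 was higher and 1 lower in P1 and in P2. *Ccnd1*, the cyclin D1 gene, rose (123 scaled units in P0, 372 in P1 and 310 in P2; log2 fold change 1.58 in P1 and 1.32 in P2) and *Cdk2* fell (-1.06 and -1.50). *Cdk4* (-0.23 in P1 and -0.55 in P2) and *Cdk6* (-0.09 and -0.07), the kinases bound by the INK4 proteins, were not called. Of 11 retinoblastoma family and E2F genes, *E2f2* fell in P1 (-3.23), and *E2f2* (-3.26), *Rbl1* (-1.56) and *E2f8* (-1.06) fell in P2. *E2f2* was under 101 on the deposited scale in both cultures and was measured only through P0, so a fall was its only possible direction. None of the 11 rose.

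Genes of DNA replication and mitosis were lower in P2 than in P0, and a link to any inhibitor was not tested. Of 23, limma called 0 higher and 9 lower in P1, beside 12.2% and 12.0% of all genes. In P2 it called 0 higher and 14 lower, beside 14.0% and 14.4% of all genes. At an unadjusted p under 0.05, 1 was higher in P1 and 0 in P2. The median log2 fold change was -0.33 in P1 and -1.24 in P2. The largest falls in P2 were those of the replication helicase genes *Mcm4* (-2.32) and *Mcm5* (-2.20), the topoisomerase gene *Top2a* (-2.26) and *Pcna*, the sliding clamp (-2.15). From P1 to P2 all 23 had a negative log2 fold change (median -0.77, beside 0.00 over all genes), of which *Top2a* was called.

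Other genes often measured in senescent cells were listed, some for their gain and some for their loss. The lower count therefore mixes falls that are the feature with falls that go against it. Of 21 listed, 19 were measured, with 9 higher and 5 lower in P1 and 9 higher and 6 lower in P2. Among all genes, 12.2% were higher and 12.0% lower in P1, and 14.0% and 14.4% in P2. Those that rose included the chemokine gene *Ccl2* (log2 fold change 4.48 in P2), the metalloproteinase inhibitor gene *Timp1* (3.48, and 3.77 in P1) and the urokinase receptor gene *Plaur* (3.40). In P0, *Ccl2* (mean 1.175 scaled units), *Plaur* (3.42) and *Mmp3* (0.59, outside the naming rule below) were under 101 on the deposited scale. They were measured only through culture, so a rise was the only direction possible, and the higher counts carry this limit. *Lmnb1*, the lamin B1 gene, whose loss is used as a senescence marker, fell (from 321 scaled units in P0 to 74.4 in P1 and 35.1 in P2, log2 fold change -3.16). So did the chromatin protein genes *Hmgb1* (-1.71 in P1 and -2.21 in P2) and *Hmgb2* (-2.09 and -2.96), whose loss has also been described in senescent cells. These 3 genes were named after their values were seen. The other genes called lower encode secreted proteins, for which a fall is not the feature. They were *Igfbp3* (-1.52 in P1 and -1.31 in P2), *Igfbp4* (-1.47 and -1.42) and, in P2 only, *Cxcl12* (-1.64). *Glb1*, the lysosomal beta-galactosidase gene, was likewise named after its values were seen and was not called (0.85 in P2, adjusted p = 0.0115, under 2-fold).

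**Figure D4:**
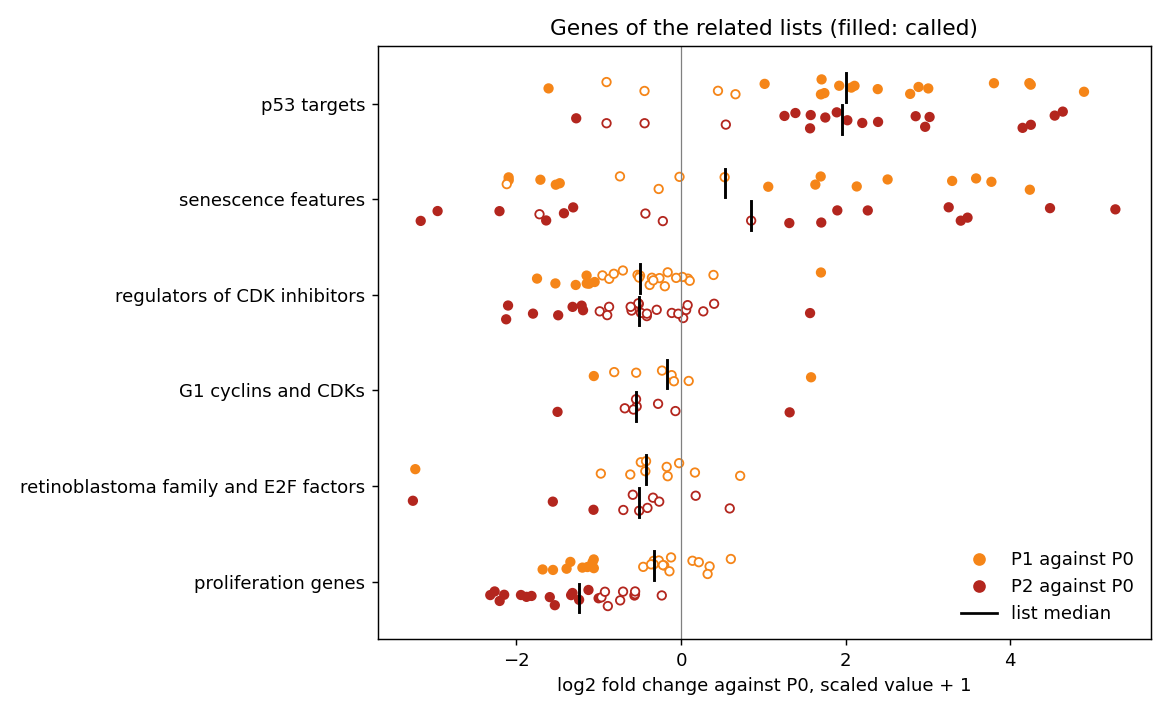
Log2 fold changes against P0 of the genes of 6 lists, with 1 point for each gene, filled where called, and a black bar at the list median; P1 above and P2 below in each row. The p53 targets have medians of 2.0 and 1.96, and the proliferation genes move from -0.33 in P1 to -1.24 in P2.

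Each member has a small set of genes whose pattern over the 3 passage means was nearest, measured as the Euclidean distance between the log2 fold changes in P1 and in P2. For *Cdkn1a* these were *Gpnmb* (distance 0.06), *Sema3c* (0.25) and *Tinagl1* (0.25), and for *Cdkn2b* *Nupr1* (0.13), *Trib3* (0.28) and *Rin1* (0.49). Only 2 genes lay within 0.25 of *Cdkn1a* and 1 of *Cdkn2b*, against 581 of *Cdkn1b*, 157 of *Cdkn2d* and 152 of *Cdkn2c*. The nearest to *Cdkn1b* were *Obfc1*, *Cables2* and *Ppp4r4*, to *Cdkn2c* *Pbld1*, *Oip5* and *Cenpi*, and to *Cdkn2d* *RP23-180L12.5*, *Gas2l3* and *Trpm2*, all within 0.04. With 3 passages these are descriptions of shape only.

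Fresh cells held RNA of red cells, endothelium and dental epithelium that culture nearly lacked. The 11 dental mesenchyme markers were measured in every passage with none at 0, and their summed level was 2747 to 3055 scaled units in P0, 1959 to 2106 in P1 and 1681 to 1883 in P2, from the sum of the lower to the sum of the higher library values. Of the 11, 6 were called lower and 0 higher in P1 and in P2 (median log2 fold changes -1.06 and -1.10). The 6 included *Osr2* (-3.27 in P2) and *Dlx1* (-2.20). *Prrx1*, with 1418 scaled units in P0 the largest part of the sum, was not called (-0.51 in P2). Over all genes, the shares lower were 12.0% in P1 and 14.4% in P2, and those higher 12.2% and 14.0%. The marker counts that follow stand beside the same shares. All 7 measured of 8 red cell markers were called lower in both cultures, from a sum of 9971 to 14200 in P0 to 1.87 to 2.78 in P1 and 1.92 to 7.59 in P2, with *Slc4a1* at 0 in both and *Hba-a2* in P2. All 8 endothelial markers fell, from 387 to 421 in P0 to 4.27 to 9.83 and 2.67 to 6.36, with *Tie1* and *Robo4* at 0 in P1 and in P2 and *Cdh5* also in P2. All 4 measured of 9 dental epithelium markers fell, from 41.5 to 97.7 in P0 to at most 2.35 in P1 and 2.03 in P2, with *Krt14* at 0 in P2. In culture, every measured red cell, endothelial and epithelial marker was under 101 on the deposited scale. They were measured only through P0, so a fall was the only direction possible, and these counts carry this limit. Of 8 macrophage markers 4 were measured, at 51.2 to 59.7 in P0, 13.6 to 17.4 in P1 and 36.6 to 63.5 in P2. *Csf1r* (-2.22 in P2) and *Irf8* (-3.33) were called lower in P1 and in P2 and *Ptprc* was not called (-0.59 in P2), so the P2 sum rests on *Lyz2*, which was called higher (7.67 scaled units in P0, 6.25 in P1 and 36.9 in P2). *Csf1r* and *Irf8* were likewise measured only through P0. The part of these cells in the P0 levels of *Cdkn1b* and *Cdkn1c* was not tested. *Cdkn1a* and *Cdkn2b* were at 1.28 and 0.21 scaled units in P0, where the red cell, endothelial and epithelial sums were highest. The part of a changed cell mixture in their rise was not tested either.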

How the data were processed

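RNA of 2 libraries per passage was sequenced on an Illumina HiSeq 2000. With bowtie 1.0.1 and RSEM (1.1.21 in the submitters' processing notes, another version in the study's methods) the authors aligned reads to Ensembl v73 transcripts of mm10, and EDASeq 1.11.0 corrected for GC content. The score in the 3 deposited tables is the authors' normalized value, a mean and an error per gene and passage. The totals of the passages were nearly equal (18717162.5 to 18722264.5), so these are not raw counts, depth is unknown and no count model was used. The error equalled the difference of the 2 library values divided by 2 and by the square root of 2. Both whole-number library values followed for all 11386 genes (tolerance 1e-06), without showing which was replicate 1. All genes had at least 101 in 2 libraries on the deposited scale, so a gene near 0 in P0 was measured only through culture. Names of 18 genes turned into dates were restored from the Ensembl identifier, and 1 entry of each table and 1 gene that the naming rule below picked are not reported here.

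Values were scaled to a sum of 1000000 per passage. The log2(scaled value + 1) of genes with at least 1 scaled unit in 2 libraries was fitted with limma 3.58.1 in R 4.3.3 (lmFit, eBayes with a trend, 3 residual degrees of freedom) over all 6 libraries, and p-values were adjusted over 11386 genes. The script was tested on simulated data. All 6 listed genes, *Cdkn1c* and up to 4 genes of each list with the largest absolute change among those called were named. The members and gene lists were chosen with earlier results of these data known. Python 3.11.15 (pandas 2.3.3, matplotlib 3.10.9) was used for the rest. Alternatives covered the pseudocount, filter, scaling, variance prior, passages fitted, threshold and each library value.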

Additional observations from a re-analysis of the deposited data

How the results depend on the processing

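The calls of *Cdkn1a* and *Cdkn2b* against P0 held in all 16 alternatives, with log2 fold changes from 3.72 to 5.82 and from 3.17 to 7.06 in P1 and from 3.78 to 5.88 and from 4.10 to 8.07 in P2. Among these alternatives, the looser fold thresholds could only add calls, and leaving out the filter changed no value. Without a fold threshold 4 members were called in P2 against P0, *Cdkn1b* and *Cdkn2d* being added, and *Cdkn1b* was also called in P1 and in P2 at a 1.5-fold threshold. Over all genes, 4851 were called in P1 and 5438 in P2 against P0 at 1.5-fold and 6685 and 7248 with no fold threshold. In P2 against P1, 34 genes were called as reported, 19 with a pseudocount of 5, 2 without a variance trend, 120 at 1.5-fold, 122 with no fold threshold and 0 when P1 and P2 were fitted alone. Leaving out 1 library value of each gene gave 0 to 16. A lone value was then assumed to vary like the other passages. Under this, the log2 fold change of *Cdkn2c* in P1 ran from -0.19 to 0.62, of *Cdkn2d* in P1 from -0.0014 to 0.17 and of *Cdkn1a* in P2 against P1 from -0.19 to 0.30, so their directions reversed, none of them called, and the cause was not tested. The p53 targets called higher numbered 14 to 15 in P1 and 15 to 16 in P2 over the alternatives, and the proliferation genes called lower 7 to 11 and 12 to 22. No paired analysis was possible because the tables do not show which library value belongs to which replicate number.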

Other observations

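Of 4 listed neighbours of the INK4 loci 2 were measured, and both had higher means in culture, by less than 2-fold. *Mtap*, a methionine salvage gene that neighbours *Cdkn2a* and *Cdkn2b*, stood at 80.6 scaled units in P0, 115 in P1 and 101 in P2 and was not called (log2 fold change 0.51 in P1, standard error 0.13, adjusted p = 0.0165 with limma). *Faf1*, beside *Cdkn2c*, was not called either, at 0.41 in P1 (adjusted p = 0.00896) and 0.43 in P2 (adjusted p = 0.0066). With no fold threshold both were called higher in P1 and *Faf1* in P2. *Cdkn2aip*, which encodes a protein that binds the ARF product of *Cdkn2a*, fell (from 36.2 scaled units in P0 to 14.9 in P1 and 15.2 in P2, log2 fold changes -1.23 and -1.20), and *Cdkn2aipnl*, which is related to it, fell in P2 (-1.40) and was under 2-fold in P1 (-0.91).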
